A study of Mus musculus with 2 samples.

Results

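The S100 proteins S100a4, S100a6, S100a10, S100a11 and S100a13, the annexins Anxa1, Anxa2 and Anxa6 and the galectins Lgals1 and Lgals3 were examined in CD4 T cells labelled Taf7 knockout and Taf7 heterozygous. The 10 genes were chosen by name as calcium-binding and glycan-binding genes that are higher in memory and effector T cells. Each was represented by its transcript cluster, the array's unit for 1 gene, that carried 1 gene symbol and had the highest mean over both arrays. All 10 were found among the 19938 genes with 1 symbol. Total RNA of sorted CD4 T cells from mouse spleen was hybridised to Affymetrix arrays, with 1 array for the knockout (KO) and 1 for the heterozygote (HET). The KO cells came from TAF7f/- 8EIII-cre+ mice, labelled Taf7 -/-, in which Cre removes the floxed allele. The HET cells came from TAF7 f/- 8EIII-cre - mice, labelled Taf7 +/-, which have the floxed and the null allele too but no Cre. Both samples were from a mixed C57/BL6 and 129 background, were sorted for high TCRbeta and CD4, and were enriched for naive cells by low surface CD44. The age and sex of the mice, the number of animals per sample and the cells in which the Cre acts are not stated in the labels.

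S100 proteins are small EF-hand proteins that change shape on binding calcium and then dock onto partner proteins. Annexins bind membrane phospholipids when calcium is present, and several of them pair with an S100 protein at the inner face of the plasma membrane. Galectins bind galactose-containing sugars on surface glycoproteins, and in T cells they are known for effects on receptor clustering, adhesion and survival. Several genes of these families are low in naive T cells and are switched on as cells become effector or memory cells, together with CD44. The comparison asks whether transcripts of this programme differed between T cells of the 2 labelled genotypes. TFIID, which contains Taf7, is the factor that recognises core promoters, including those with a TATA box.

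None of the 10 genes differed by 1.5-fold between the arrays. Among the 6 above a filter on low values, 0 were at least 1.5-fold lower in the KO, where 3.17% of all 10457 genes above the filter were, and 0 were at least 1.5-fold higher, where 0.449% were. The filter was a mean of both arrays at or above 7.71, the median over all rows of the table, and S100a4, S100a6, Anxa1 and Anxa2 were below it. Values are log2 signals, and every difference is the KO value minus the HET value on the log2 scale. The gene furthest from 0 was Lgals1 with 1.39-fold lower signal in the KO, and the gene nearest to 0 was Lgals3 with a log2 difference of 0.01. With 1 array per genotype there is no replicate error and no test, and with 6 genes a count of 0 is near both background shares and is no result about these genes. In bulk RNA, fewer cells of a type and less RNA per cell cannot be told apart.

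Taf7 itself, the deleted gene, had a log2 value of 7.79 in the KO and 8.34 in the HET, a difference of -0.55 or 1.46-fold lower. The position of its probes is not known here, and probes outside the deleted part would not check the genotype. The arrays had median log2 values of 7.75 (KO) and 7.68 (HET). The offset between them varied with signal: genes above the filter had a median difference of -0.05, and genes below it 0.14. A small positive difference at low signal is therefore what most genes there showed.

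**Figure D1:**
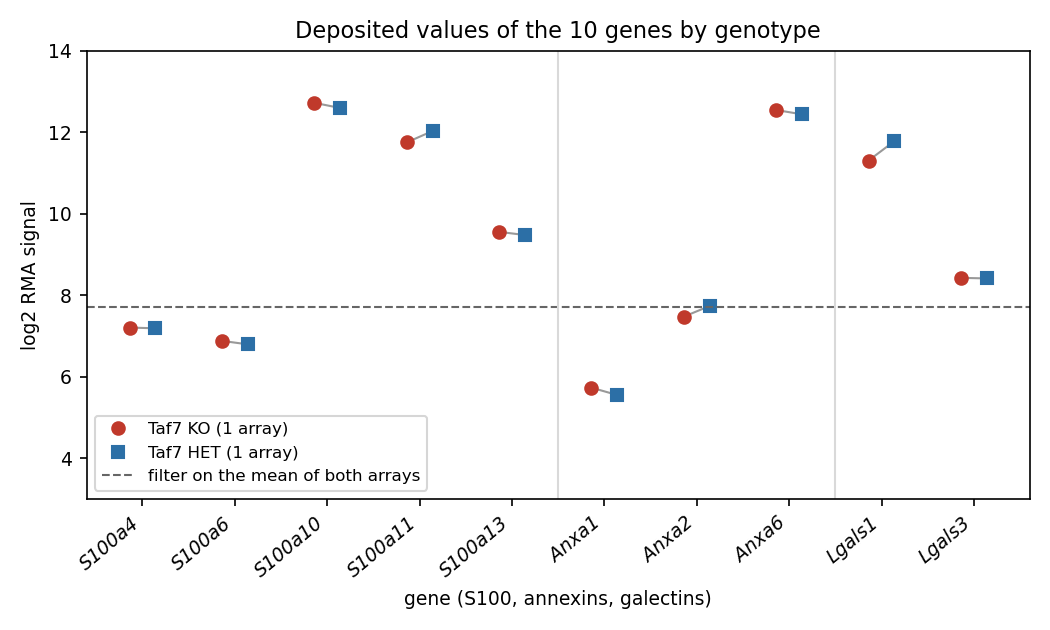
Log2 RMA signal (vertical axis) of the 10 genes on the Taf7 KO array (red circles) and the Taf7 HET array (blue squares), with 1 array per genotype, a line joining both values of a gene and the filter of 7.71 dashed. The 2 values of each gene lie within 0.48 of each other, and the step is steepest for Lgals1, at 11.31 in the KO and 11.78 in the HET.

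The core promoters of 7 of the 10 genes are in the RefSeq promoter table of GRCm38.p6, and 5 are shown. These 5 are the ones that hold a TATA box or GC box motif. S100a6 and S100a13, which hold neither, are not shown. The TATA box is marked because Taf7 belongs to TFIID, which recognises it, and the GC box, a site of Sp1-family factors, because it is the other common promoter element found near these starts. The table has no window for S100a10, Anxa6 and Lgals1. Each line gives 80 bases before and 20 bases from the annotated start, 5′ to 3′ on the strand of the gene, with TATAAA and GGGCGG, or their reverse complements TTTATA and CCGCCC, in capitals.
S100a4 (chr3:90603690-90603789, plus strand): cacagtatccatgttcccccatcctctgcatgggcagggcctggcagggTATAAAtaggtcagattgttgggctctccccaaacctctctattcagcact
Anxa1 (chr19:20390652-20390751, minus strand): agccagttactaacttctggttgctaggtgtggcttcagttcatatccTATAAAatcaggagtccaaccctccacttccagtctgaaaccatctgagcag
Anxa2 (chr9:69453603-69453702, plus strand): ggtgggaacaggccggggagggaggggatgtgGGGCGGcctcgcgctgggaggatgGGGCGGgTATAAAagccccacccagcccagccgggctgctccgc
S100a11 (chr3:93520416-93520515, plus strand): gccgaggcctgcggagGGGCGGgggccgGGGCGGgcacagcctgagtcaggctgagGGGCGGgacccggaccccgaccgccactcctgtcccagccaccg
Lgals3 (chr14:47373780-47373879, plus strand): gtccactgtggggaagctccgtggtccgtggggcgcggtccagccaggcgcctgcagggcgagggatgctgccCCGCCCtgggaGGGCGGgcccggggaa

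The searches used whole windows of 300 bases, of which 250 lie before the start, on both strands. TATAAA was found in S100a4 from position -31, in Anxa1 from -32 and in Anxa2 from -17, counted back from the start, and in 13.6% of all 32851 windows in the table. Those 3 genes were below the filter on these arrays, and their log2 differences were 0.02, 0.18 and -0.26. GGGCGG, the core of the GC box, was found in S100a11, Anxa2 and Lgals3 and in 35.7% of all windows. Of the other motifs searched, CCAAT was found in S100a6 and Lgals3 (37.4% of all windows), and TGACTCA, the AP-1 site, in S100a11 and Anxa2 (5.2% of all windows). S100a13 matched none of these 4 motifs. The motifs were picked with the values of these genes in view, so a match is a description of the letters in the window.

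S100a10, also called p11, is the S100 protein that pairs with Anxa2, and it is unusual in being held in its active shape without calcium. Its cluster, 10493995, had a log2 value of 12.72 in the KO and 12.59 in the HET, a difference of 0.13. It ranked 8291st from the lowest difference among the 10457 genes above the filter. Anxa2, its membrane-binding partner, went the other way on cluster 10586744, with 7.47 in the KO and 7.74 in the HET, a difference of -0.26. Only the HET value of Anxa2 was above 7.71 and the mean was below it, so Anxa2 was left out of the counts above the filter. The 2 partners of this complex thus had differences of opposite sign, at 1.09-fold and 1.20-fold in size. Ahnak, a giant scaffold protein that binds this complex under the plasma membrane, was at 8.51 in the KO and 8.68 in the HET, a difference of -0.17.

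S100a11, which pairs with Anxa1, was the S100 gene with the lowest difference. Cluster 10493990 had a log2 value of 11.75 in the KO and 12.03 in the HET, a difference of -0.28 or 1.21-fold lower, at rank 1743 from the lowest. Its other cluster, 10457640, was at 11.69 in the KO and 11.95 in the HET, a difference of -0.27. Both clusters gave nearly the same step, although signal from a near-identical copy elsewhere cannot be separated where probes match both. Anxa1, the glucocorticoid-induced annexin that signals through formyl peptide receptors, was at 5.73 in the KO and 5.55 in the HET on cluster 10466606. Its difference of 0.18 was close to the median of 0.14 of genes below the filter. The formyl peptide receptor genes Fpr1 and Fpr2 had no cluster with 1 symbol.

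S100a4 and S100a6 are among the S100 genes best known from memory and effector T cells. S100a4 binds non-muscle myosin and is linked to cell motility, and S100a6, calcyclin, binds the ubiquitin ligase component Cacybp. S100a4 (cluster 10493812) had a log2 value of 7.21 in the KO and 7.19 in the HET, a difference of 0.02. S100a6 (cluster 10493820) was at 6.88 in the KO and 6.79 in the HET, a difference of 0.09. Both genes were below the filter on both arrays. Their small positive differences became -0.15 and -0.08 when the trend of the difference with signal was removed, so no direction can be given for either. Their partners were well above the filter and also differed little, with Myh9, the myosin heavy chain, at 0.01 and Cacybp at 0.09.

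S100a13, which takes part in the export of proteins that lack a signal peptide, was at 9.55 in the KO and 9.48 in the HET on cluster 10493789, a difference of 0.08 at rank 7561 from the lowest. In the order of genes on the reference chromosome 3, S100a13 follows S100a1 and is followed by a run of S100 genes from S100a14 to S100a9 that includes S100a4 and S100a6. In that run all 10 measured S100 genes had a mean below the filter, while S100a1 was at 7.79 in the KO and 7.81 in the HET. S100a11 and S100a10 lie next to each other among the protein-coding genes further along, and both were above the filter. Probes of different genes differ in brightness, so these values are not an order of transcript levels.

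Anxa6, an annexin that binds the Ras regulator Rasa1 and is abundant in lymphocytes, was at 12.55 in the KO and 12.44 in the HET on cluster 10385966, a difference of 0.11 at rank 7984 from the lowest. A second Anxa6 cluster, 10385993, had 8.66 in the KO and 8.29 in the HET, a difference of 0.37 or 1.29-fold. The 2 clusters had the same sign and differed in size, and their average gave 0.24. Rasa1 was at 10.80 in the KO and 10.95 in the HET, a difference of -0.14.

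Lgals1 encodes galectin-1, a secreted lectin that dampens effector T cells and is raised in activated and regulatory T cells. Cluster 10425161 had a log2 value of 11.31 in the KO and 11.78 in the HET, a difference of -0.48 or 1.39-fold lower. It ranked 595th from the lowest among the 10457 genes above the filter, at percentile 5.68. It was the only one of the 6 genes above the filter to be lower by at least 0.32, as 13.3% of genes above the filter were. None was higher by as much, as 5.03% were, and with 6 genes both counts are near these shares. The central 95% of all genes above the filter spanned -0.62 to 0.39, a range that pools all signal levels. Among the 500 genes nearest in mean to Lgals1, the robust SD of the difference was 0.17, next to 0.31 for those nearest to Lgals3. With the trend removed, Lgals1 was at -0.43. This SD is a spread over genes and not a replicate error. Lgals3, galectin-3, which binds the sugars made by Mgat5 and can restrain the T cell receptor, was at 8.43 in the KO and 8.41 in the HET on cluster 10414360. Its difference of 0.01 was -0.00 with the trend removed. The step of Lgals1 was thus not seen for Lgals3 on these arrays, and the 2 galectins were not tested against each other.

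**Figure D2:**
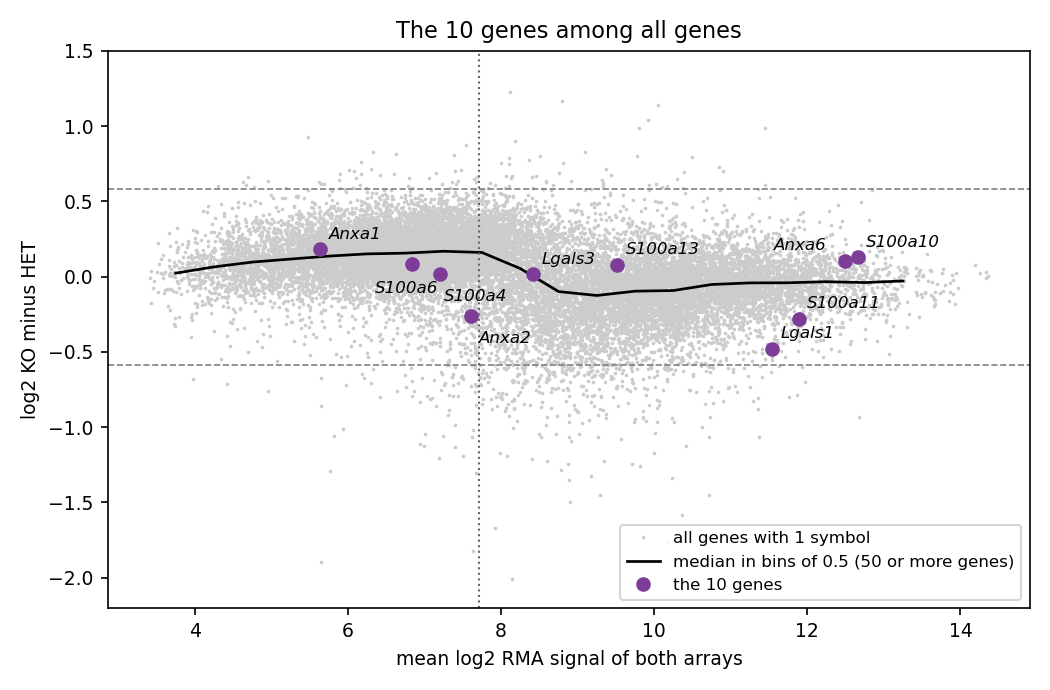
Log2 KO minus HET (vertical axis) against the mean log2 RMA signal of both arrays (horizontal axis) for all 19938 genes (grey), with the 10 genes in purple, the median in bins of signal as a black line, 1.5-fold as dashed lines and the filter of 7.71 dotted. All 10 genes lie between the dashed lines, from Lgals1 at -0.48 to Anxa1 at 0.18, and the black line is above 0 at low signal and below 0 at high signal.

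Taken as a list, 3 of the 10 genes were lower in the KO (S100a11, Anxa2 and Lgals1) and 7 were higher, where 39.3% of all 19938 genes were lower. Their median difference was 0.05, next to 0.06 over all genes, which mixes the offsets of high and low signal. Of the 6 above the filter, 2 were lower and 4 higher, where 59.1% of all genes above it were lower. The median of these 6 was 0.05, next to -0.05 over all genes above the filter, and 6 genes are too few for a result. The count of lower genes among the 10 depended on the scaling. It was 6 after removal of the trend with signal and 5 after quantile normalization, because S100a4, S100a6 and Lgals3 lie close to 0. S100a11, Anxa2 and Lgals1 were lower under every setting tried, all on the same 2 arrays. Other filters could not move these values, nor could averaging of clusters for Anxa2 and Lgals1. Lgals1 was between -0.48 and -0.43, S100a11 between -0.28 and -0.23, and Anxa2 between -0.42 and -0.21.

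No gene in the rest of the 3 families reached 1.5-fold. With few of them above the filter, that is near the shares of all genes there, 3.17% lower and 0.449% higher. Of 28 other S100, annexin and galectin genes measured, 9 were above the filter with 6 of them lower and 3 higher, where 59.1% of all genes above the filter were lower. Anxa5, the annexin used as a stain for dying cells, was the lowest, at 11.15 in the KO and 11.66 in the HET, a difference of -0.51 or 1.42-fold lower. Anxa11, a relative with a long amino-terminal tail, was at -0.17 and Anxa7 at -0.06. Lgals9, a galectin that binds the inhibitory receptor Tim-3, was at -0.19, and Lgals8 was at 0.20. The median over the 28 genes was 0.17, which reflects the 19 below the filter. S100a8 and S100a9, the calprotectin subunits of neutrophils and monocytes, were among those, with 6.01 and 6.82 in the KO against 5.86 and 6.51 in the HET.

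**Figure D3:**
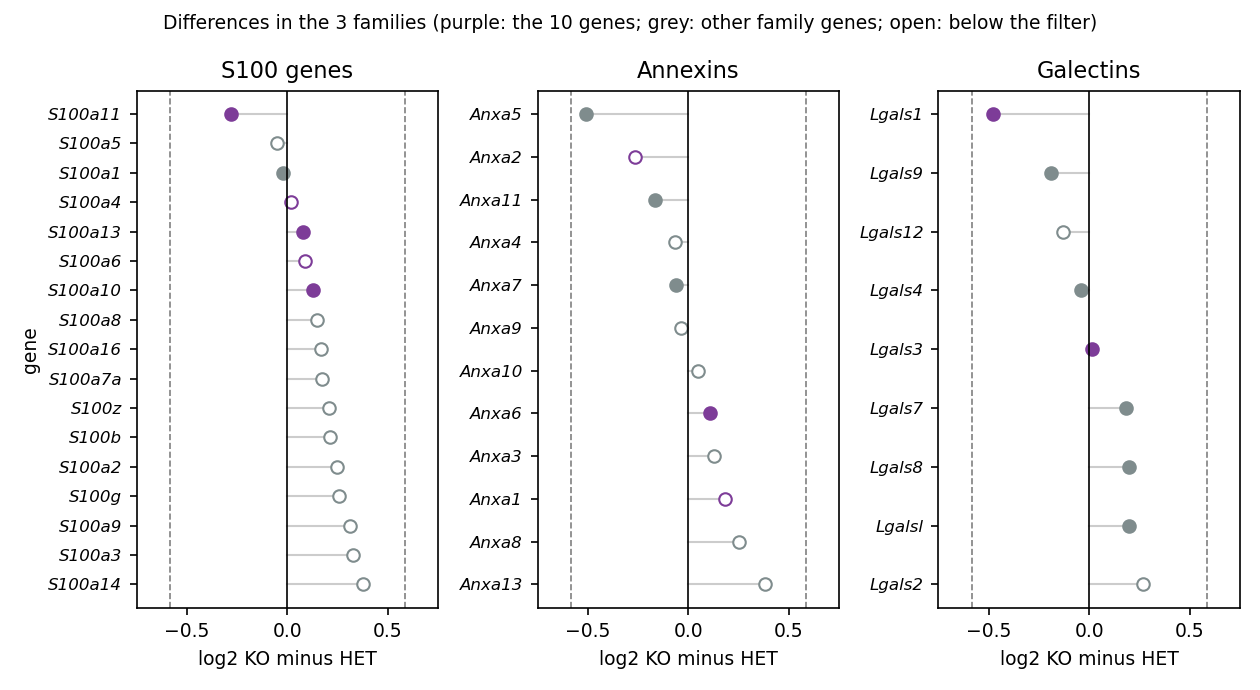
Log2 KO minus HET (horizontal axis) of every measured S100 gene, annexin and galectin (rows), sorted within each family, with the 10 genes in purple, other family genes in grey, genes below the filter as open circles and 1.5-fold as dashed lines. No gene crosses a dashed line; Anxa5 at -0.51 and Lgals1 at -0.48 come closest.

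Binding partners and glycan enzymes were measured as 22 of 24 listed genes, with a median difference of -0.06. Of the 16 above the filter, 10 were lower and 6 higher, a split near the 59.1% of all genes above the filter that were lower. None reached 1.5-fold, where 3.17% of all genes above the filter were that much lower and 0.449% higher. St6gal1, the sialyltransferase whose product masks sugars from galectin-1, was the lowest at 11.44 in the KO and 11.97 in the HET, a difference of -0.53. Itgb1, the integrin beta-1 chain, was at -0.34 and the lysosomal glycoprotein gene Lamp2 at -0.30. The T cell glycoproteins bound by galectin-1 differed less, with Cd7 at -0.22, Ptprc, which encodes CD45, at 0.01, and Spn, which encodes CD43, at 0.10. Mgat5 was at -0.06 and Lgals3bp, a secreted ligand of galectin-3, at -0.14.

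Other memory and effector genes were mostly lower in the KO. Of 34 measured, 25 were lower and 9 higher, where 39.3% of all genes were lower. The median difference was -0.23, next to 0.06 over all genes and -0.05 over all genes above the filter. Of the 25 above the filter 20 were lower, where 59.1% of all genes above it were, 5 were at least 1.5-fold lower, where 3.17% were, and 0 at least 1.5-fold higher. Tbx21, which encodes the T helper 1 factor T-bet and was chosen after its value was seen, was just short of that size, at 8.02 in the KO and 7.45 in the HET, 1.49-fold higher, and passed it at 1.54-fold once the median difference was subtracted. Cd44 had a log2 value of 8.21 in the KO and 9.56 in the HET, 2.55-fold lower, but CD44 was also the protein used to enrich the cells. Klrd1 was 2.13-fold lower, Cd40lg was at 10.13 in the KO and 11.13 in the HET, Crip1, a small LIM protein of memory cells, was 1.63-fold lower and Icos 1.58-fold lower. In contrast Vim, the intermediate filament gene that often accompanies S100 genes in memory cells, was at 13.52 in the KO and 13.29 in the HET, a difference of 0.23. Tagln2 was at -0.22 and Emp3 at -0.04; these 3 genes were chosen after their values were seen. The 2 lists were not tested against each other.

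Regulatory T cells also carry galectin-1, and their genes were lower in the same sample. Of 15 measured, 14 were above the filter, all 14 were lower, where 59.1% of genes above the filter were, and 7 were at least 1.5-fold lower, where 3.17% were. The median of the list was -0.51. Nrp1 was 3.19-fold lower, Ctla4 2.82-fold lower and Foxp3, the defining factor, 2.09-fold lower, followed by Izumo1r at 2.09-fold, Ikzf2 at 1.96-fold, Lrrc32 at 1.94-fold and Il2ra at 1.78-fold lower. The summed linear signal of the list was 12756 in the KO and 20467 in the HET. Its part in the lower Lgals1 value was not tested. The 15 naive T cell genes measured had a median of -0.05. None reached 1.5-fold, where 3.17% of all genes above the filter were that much lower and 0.449% higher. Dapl1 was at -0.52, Cd27 at -0.35 and Nsg2 at -0.31.

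**Figure D4:**
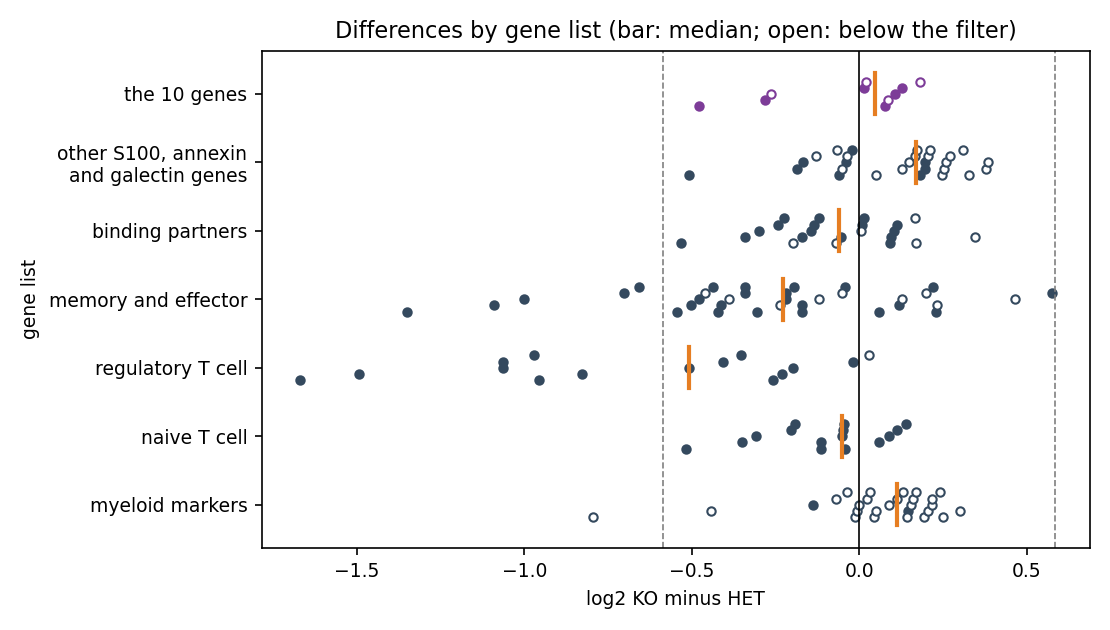
Log2 KO minus HET (horizontal axis) of each gene in 7 lists (rows), with the median of each list as an orange bar, genes below the filter as open circles and 1.5-fold as dashed lines. The 10 genes stay between the dashed lines with a median of 0.05, while the memory and effector list (median -0.23) and the regulatory T cell list (median -0.51) reach further to the left.

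The CD4 T cell markers matched the label: all 11 measured were above the filter, and Thy1, 1.91-fold lower, was the only one to reach 1.5-fold, followed by Cd3d at -0.50 and Cd28 at -0.42. Cd4 itself, given because it was sorted on, was at 12.77 in the KO and 12.99 in the HET. Myeloid cells carry much S100a4, S100a6, Anxa1 and Lgals3, and 25 of 27 myeloid markers were below the filter. The summed linear signal of the myeloid list was 5747 in the KO and 5834 in the HET. Its largest part was Cst3, at 11.10 in the KO and 11.23 in the HET, so the sum says little about the other markers. Itgam, chosen after its value was seen, was at 7.04 in the KO and 7.83 in the HET, and Cst3 and Cd68, the 2 above the filter, were at -0.14 and 0.14. Of other cells a spleen sort could hold, 9 of 11 B cell, 5 of 6 natural killer cell, 4 of 6 platelet, 3 of 5 plasma cell, 3 of 4 erythroid and 3 of 7 stromal markers were below the filter. Of all 19938 genes, 9481 were below it too, so such counts do not show which cells were absent. Of the CD8 T cell markers, Cd8a, given because the list holds only 2 genes, was below the filter. Cd8b1 was well above it, at 10.24 in the KO and 10.50 in the HET. The markers of these lists at least 1.5-fold lower were Cd72, Eomes and Itgb3. Others above the filter, with at most 3 named per list by size of difference, were Pecam1 at -0.55, Irf4 at -0.45, Xbp1 at -0.29 and Cd79b at -0.01. Itga2b was at 0.23, Slc4a1 at 0.24, Col1a1 at 0.28 and Col3a1 at 0.35. The part of any of these cells in the values above was not tested.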

How the data were processed

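The authors deposited log2 signals per gene, made in Affymetrix Expression Console version 1.1 by RMA on the core gene set, per the series design text and the submitters' processing notes. Genome build and probe positions are not stated there. RMA gives smaller differences near background, so folds of low genes may be understated. An exon array is named in the design text, but the probe table matches the gene-level whole transcript array. Of 35556 rows, 21789 had 1 symbol; the gene identifiers of all 10 genes matched the reference gene table of GRCm38.p6, used for names and order. Values were compared without further normalization, as KO minus HET, and counted at 1.5-fold among genes with a mean of at least 7.71. The members and lists were chosen with earlier results of these data known. Named are the 10 genes, Taf7, family and partner genes, and in other lists the genes above the filter at 1.5-fold. Where fewer than 3 reach it, the 3 with the largest difference are named. Others are said to be chosen after their values were seen, apart from Cd4 and Cd8a, which are given with a reason. No gene is named for likeness of pattern, which 2 arrays cannot give. The counting code was run on simulated data with planted differences beyond the fold counted and less noise than these arrays. That run checks the code and not the results. Alternatives were centring, loess (span 0.3), quantile normalization, other filters, averaged clusters and other fold sizes. The tools were matplotlib 3.10.9, statsmodels 0.14.6, pandas 2.3.3 and numpy 2.4.6 under Python 3.11.15. Precision is limited by there being 1 array per genotype.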

Additional observations from a re-analysis of the deposited data

How the results depend on the processing

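No paired analysis was possible because the KO and HET have 1 array apiece, which also leaves none to omit. Counted from a log2 difference of 0.32, 1 of the 6 genes above the filter (Lgals1) was lower and 0 higher, against 0 and 0 at 1.5-fold. From 0.32, 13.3% of all genes above the filter were lower and 5.03% higher, so these counts are near the background. Under each scaling, filter and averaging of clusters the count at 1.5-fold stayed at 0 in both directions, also for the 10 genes with no filter. The number of the 10 genes lower by any size was 6 with the loess trend removed and 5 with quantile normalization, against 3. Of 70 values of single genes under these alternatives, 68 moved by less than the robust SD of the 500 genes nearest in mean, and S100a4 (-0.15) and S100a6 (-0.08) moved further with the trend removed. Values under other filters could not move, nor could those of genes with 1 cluster when clusters were averaged. These unmoved values are counted among the 68. Chosen after the data had been seen, the memory and effector list was recounted at 1.5-fold: 1 gene, Tbx21, was higher after centring, against 0, and 4 were lower with the trend removed or with quantile normalization, against 5. Taf7 differed by between -0.64 and -0.50. Over all genes, the number 1.5-fold or more higher in the KO was 71 after centring, 91 with no filter and 16 with the filter at the 75th percentile, against 47, and the count lower was 105 with that last filter, against 332; admitting fewer genes lowers both.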
